A study of Mus musculus with 19 samples.

Results

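Glutamate acts on retinal neurons through ion channels and through receptors coupled to G proteins, and 9 genes of these families were described here: the NMDA receptor subunits Grin1, Grin2a, Grin2b, Grin2d and Grin3a and the metabotropic receptors Grm2, Grm4, Grm5 and Grm7. They were taken by name, were all found among the 47069 genes of the count tables, and all entered the comparison of 15941 tested genes. Of the other genes of the same families, Grin2c, Grin3b, Grm3, Grm6 and Grm8 are given beside them.

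The NMDA receptor is a tetramer of GluN1 subunits, which bind the co-agonist glycine or D-serine, with GluN2 subunits that bind glutamate or GluN3 subunits that bind glycine. Depending on its subunits, it may open fully only when agonist binding coincides with depolarization, and it passes calcium. Metabotropic glutamate (mGlu) receptors fall into group I, which couples to Gq and phospholipase C, and groups II and III, which couple to Gi/o and lower cyclic AMP, often at presynaptic terminals. In the developing visual system glutamate signalling is best known for its part in the refinement of retinal projections.

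RNA was sequenced from 2 populations of retinal ganglion cells (RGCs) at E16.5, before birth: iRGCs, whose axons stay on the same side of the brain, and cRGCs, whose axons cross at the chiasm. Both came from embryos on a C57/DBA F1 background, with males and females pooled, that carried the Cre-dependent nuclear tag Sun1-GFP in the Rosa26 locus and were otherwise labelled WT. For iRGCs the tag was switched on by Slc6a4-Cre (ET33), driven by the serotonin transporter gene, and for cRGCs by Pou4f2-Cre, after the ventrotemporal retina, where iRGCs lie, had been cut away. The Pou4f2-Cre line was made by gene targeting into the Pou4f2 (Brn3b) locus, so only the cRGC embryos carried this allele. Its effect on Pou4f2 and other genes cannot be told apart from population. GFP-positive cells were sorted, and each population gave 3 libraries, with between 28193178 and 33638083 reads on genes. The iRGCs are therefore defined by a driver alone and the cRGCs by a driver and a dissection, and any other cell that expresses the driver is part of the sort. The labels name no embryo behind a library, so p-values measure the spread between these libraries, which may be technical in part.

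Before the receptors, the libraries were set against their labels. Levels below are in CPM, the reads on a gene relative to the size of its library, after library sizes had been scaled by the trimmed mean of M-values (TMM). Slc6a4, the gene of the iRGC driver, stood at 2.06, 33.4 and 116 CPM in iRGC replicates 1, 2 and 3, and at 48.1, 35.4 and 30.5 CPM in the cRGC replicates. The populations overlapped for this gene, and iRGC replicate 1 lay below every cRGC library. Zic2, the transcription factor that specifies iRGCs, was at 134, 173 and 157 CPM in iRGCs against 57.0, 60.2 and 65.7 CPM in cRGCs, with no overlap. Pou4f2, the gene of the cRGC driver, was at 74.8, 133 and 98.3 CPM in iRGCs and at 191, 196 and 293 CPM in cRGCs.

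Markers of cell classes also separated the populations. Of 15 RGC markers, 14 were lower in iRGCs, and their geometric mean was 112, 150 and 229 CPM in the iRGC replicates against 628, 562 and 545 CPM in the cRGC replicates. Their summed level was 3103, 4424 and 6443 CPM in iRGCs against 16370, 14950 and 18520 CPM in cRGCs, and Tubb3, a neuronal tubulin, was the most abundant of them. All 14 retinal progenitor markers were higher in iRGCs, with a summed level of 10050, 8681 and 7653 CPM against 878, 2247 and 1427 CPM, and Ccnd1, a cyclin of dividing cells, was the most abundant. Each RGC marker and each progenitor marker had counts in all 6 libraries. In sorted bulk samples, fewer cells of a type and less of an RNA per cell cannot be told apart. The authors also describe the iRGCs as younger on average than the cRGCs at this stage, because they are born later. Cell age therefore goes with population in these libraries, and its part in the differences below cannot be told apart from that of laterality.

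Most of the receptor transcripts were lower in iRGCs. Of the 9 receptors, 7 were lower in iRGCs, 1 was higher (Grm7) and 1 did not pass (Grm5), at an adjusted p under 0.1 in edgeR's quasi-likelihood test, adjusted over the whole table by Benjamini-Hochberg. The background to these counts is large: 46.4% of all tested genes passed this threshold, 23.1% as lower and 23.3% as higher in iRGCs. The libraries of the populations did not overlap for 8 of the 9 receptors, against 55.3% of all tested genes. The median log2 fold change, iRGC over cRGC, was -2.01 over the 9 receptors and -0.0031 over all tested genes. With iRGC replicate 1 left out, the counts stayed at 7 lower and 1 higher, beside 7096 of 16752 tested genes called.

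**Figure D1:**
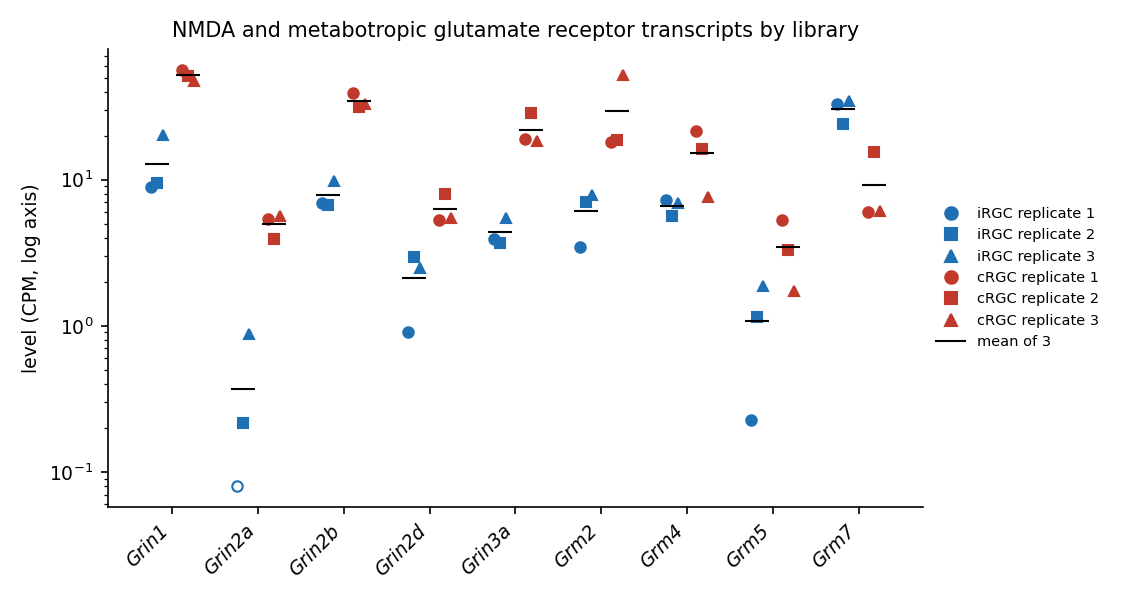
Level of each receptor transcript in CPM (log axis) in the 3 iRGC libraries (blue) and the 3 cRGC libraries (red), with black bars for the mean of 3. The open circle for Grin2a stands for a count of 0 in iRGC replicate 1, drawn at the foot of the axis. Libraries overlapped for Grm5 alone, and Grm7 was the one gene of the 9 with every iRGC library above every cRGC library.

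Grin1 encodes GluN1, the subunit that every NMDA receptor needs. Its level was 8.84, 9.46 and 20.1 CPM in iRGC replicates 1, 2 and 3 and 56.3, 51.1 and 47.7 CPM in the cRGC replicates. The cRGC libraries lay close together, and iRGC replicate 3 stood above the other iRGC libraries without reaching them. Means were 12.8 ± 6.32 CPM (SD, n = 3) in iRGCs and 51.7 ± 4.34 CPM (SD, n = 3) in cRGCs, so that Grin1 fell by 2.01 on the log2 scale (SE 0.305, edgeR adjusted p = 0.00098). The gene lies on the minus strand at chr2:25291181-25319187 (GRCm38), and 13.5% of its exonic bases are shared with Grin1os on the opposite strand. Since the strand setting of the counting is not given in the sources used here, reads of that RNA may be among its counts.

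Grin2b, the GluN2 subunit known to predominate in the embryonic brain, fell by 2.13 on the log2 scale (SE 0.213, edgeR adjusted p = 0.000223). It was at 6.95, 6.74 and 9.87 CPM in iRGCs and at 38.9, 31.3 and 33.1 CPM in cRGCs. All 3 iRGC libraries were low and close together, and the means were 7.85 ± 1.75 and 34.4 ± 3.99 CPM (SD, n = 3 each). Its locus, at chr6:135713233-136173511 on the minus strand, is one of the long neuronal genes.

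Grin2a encodes GluN2A, which is known to rise after birth. Per kilobase of exon it had the lowest mean of the 9 in both populations, with 0, 7 and 28 reads in the iRGC libraries and 139, 114 and 174 reads in the cRGC libraries. As levels these were 0, 0.216 and 0.883 CPM against 5.34, 3.93 and 5.62 CPM, so no iRGC library came near the cRGC range. The count of 0 in iRGC replicate 1 allows up to 0.0965 CPM, the value of 3 reads, for counting error only. The log2 fold change of -3.74 had the widest error of the set (SE 1.11, edgeR adjusted p = 0.0253), and it was -3.17 without that library and -5.46 without iRGC replicate 3. Grin2a lies at chr16:9567898-9995560 on the minus strand.

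Grin2d encodes GluN2D, whose channels close slowly and are little blocked by magnesium. It was at 0.901, 2.94 and 2.49 CPM in iRGCs against 5.31, 8.04 and 5.45 CPM in cRGCs. The difference of -1.57 (SE 0.516, edgeR adjusted p = 0.0387) was smaller than that of the other NMDA subunits described. It did not pass without cRGC replicate 2, the highest library (-1.34, edgeR adjusted p = 0.155). The locus is chr7:45831883-45878378 on the minus strand, and 9.66% of its exonic bases are shared with Gm45441.

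Grin3a encodes GluN3A, a juvenile subunit that lowers calcium entry and magnesium block. Levels of 3.92, 3.68 and 5.49 CPM in iRGCs stood against 18.9, 28.4 and 18.5 CPM in cRGCs. The lowest cRGC library was thus well above the highest iRGC library, and the means, 4.36 ± 0.981 and 21.9 ± 5.63 CPM (SD, n = 3 each), differed by -2.33 on the log2 scale (SE 0.277, edgeR adjusted p = 0.000356). Grin3a lies at chr4:49661611-49845744 on the minus strand.

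Grin2c, the remaining GluN2 gene and one best known from cerebellar granule cells, went the other way. It was at 12.4, 11.0 and 8.77 CPM in iRGCs and at 1.23, 2.07 and 1.39 CPM in cRGCs. No library overlapped, and the log2 fold change was 2.77 (SE 0.362, edgeR adjusted p = 0.0005). Grin3b, the other GluN3 gene, had at most 7 reads in any library and was not tested.

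The GluN2 transcripts were then expressed as shares of their sum. Divided by the exon length of each gene, Grin2c made up 85.6%, 75.1% and 68.0% of the 4 GluN2 transcripts in the iRGC replicates and 8.40%, 13.3% and 10.1% in the cRGC replicates. Grin2b made up 9.71%, 9.33% and 15.5% in iRGCs and 53.9%, 40.7% and 48.6% in cRGCs. Grin2d took 11.5 ± 5.89% against 32.1 ± 6.08%, and Grin2a 0.779 ± 1.01% against 9.59 ± 2.25% (SD, n = 3 each). Dividing by the longest annotated transcript instead gave 74.5% and 9.77% for Grin2c and 11.3% and 44.3% for Grin2b. The lengths hardly differ for Grin2b (24842 and 24060 bases) or Grin2c (5037 and 4895), so this alternative could change their shares little. Before division by length, the iRGC replicates held 386, 356 and 278 reads of Grin2c and 216, 218 and 313 of Grin2b. The size of the Grin2c share thus depends on the length of Grin2b, and the part of other cell types in it was not tested. These shares are of RNA, and the shares of one library sum to a fixed total, so they are given with no test.

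**Figure D2:**
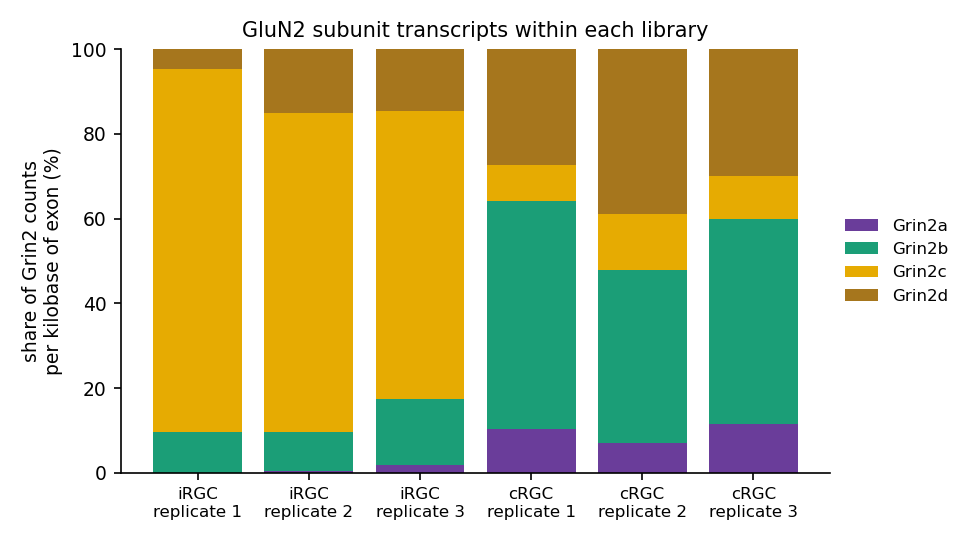
Share of Grin2a, Grin2b, Grin2c and Grin2d in each library, in percent of the summed counts per kilobase of exon of these genes. Grin2c fills from 68.0% to 85.6% of the iRGC bars and from 8.40% to 13.3% of the cRGC bars, where Grin2b is the widest segment.

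Ratios between subunits within a library do not depend on how library sizes were scaled. In all, 6 such ratios were computed per kilobase of exon and compared by two-sided exact permutation tests, for which 3 against 3 libraries cannot give a p below 0.1. The ratio of Grin2b to Grin1 was 25.9 ± 5.98% in iRGCs and 26.0 ± 1.78% in cRGCs (exact permutation p = 1). These percentages depend on the length used. By the longest transcript, mean Grin2b and Grin1 were 0.326 and 2.99 CPM per kb in iRGCs and 1.43 and 12.1 in cRGCs. The difference in the ratio, iRGC minus cRGC, was then -0.0564 percentage points. Grin2a to Grin2b was 0%, 4.45% and 12.4% in iRGCs and 19.0%, 17.4% and 23.5% in cRGCs, without overlap (exact permutation p = 0.1, 0.3 after Benjamini-Hochberg adjustment over the 6 ratios). A difference in the first of these ratios was not detectable with 3 libraries a group, while for the second every iRGC library lay below every cRGC library. Grin3a to Grin1, Grin2d to Grin2b and Grm5 to Grin1 overlapped between the populations, with exact permutation p-values of 0.6, 0.7 and 0.8.

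Among the metabotropic receptors, Grm2 is the Gi/o-coupled group II receptor found mostly on axons. It was at 3.47, 7.05 and 7.82 CPM in iRGCs and at 18.0, 18.7 and 52.1 CPM in cRGCs. The populations did not overlap, although cRGC replicate 3 was far above the other cRGC libraries. The log2 fold change was -2.27 (SE 0.475, edgeR adjusted p = 0.00487) and became -1.58 without that library. Grm2 lies at chr9:106643095-106656082 on the minus strand, with 9.60% of its exonic bases shared with Gm28111. Grm3, the other group II receptor, fell by 1.40 (SE 0.369, edgeR adjusted p = 0.0148).

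Of the group III receptors, Grm7 alone was higher in iRGCs. It encodes mGlu7, a presynaptic receptor with a very low affinity for glutamate, and lies at chr6:110645581-111567230 on the plus strand. Its level was 33.1, 24.1 and 34.8 CPM in iRGCs and 6.04, 15.4 and 6.10 CPM in cRGCs. The lowest iRGC library exceeded the highest cRGC library, replicate 2, which also had the highest progenitor marker level among the cRGC libraries. Means were 30.6 ± 5.77 and 9.19 ± 5.40 CPM (SD, n = 3 each), with a log2 fold change of 1.74 (SE 0.374, edgeR adjusted p = 0.0057), which became 2.35 without cRGC replicate 2. The part of other cell types in this difference was not tested.

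Grm4, another presynaptic group III receptor, was at 7.24, 5.66 and 6.91 CPM in iRGCs and at 21.6, 16.3 and 7.55 CPM in cRGCs. Replicate 3 of the cRGCs came close to the iRGC range, and the difference was the smallest of the 9 (-1.20, SE 0.370, edgeR adjusted p = 0.0301). Without cRGC replicate 1 it did not pass (-0.86, edgeR adjusted p = 0.137). Grm4 lies at chr17:27422387-27521403 on the minus strand. Grm8, also of group III, fell by 1.87 (SE 0.375, edgeR adjusted p = 0.0040). Grm6, the receptor of ON bipolar cells, had reads in iRGC replicate 2 alone and was not tested.

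Grm5 encodes mGlu5, the group I receptor that is widespread in young neurons and glia, and lies at chr7:87584168-88134907 on the plus strand. It was at 0.225, 1.14 and 1.86 CPM in iRGCs and at 5.31, 3.28 and 1.74 CPM in cRGCs, and the highest iRGC library exceeded the lowest cRGC library. The log2 fold change of -1.67 had an SE of 0.827 and did not pass (edgeR adjusted p = 0.146). Without iRGC replicate 3 it passed (-2.33, edgeR adjusted p = 0.0921).

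**Figure D3:**
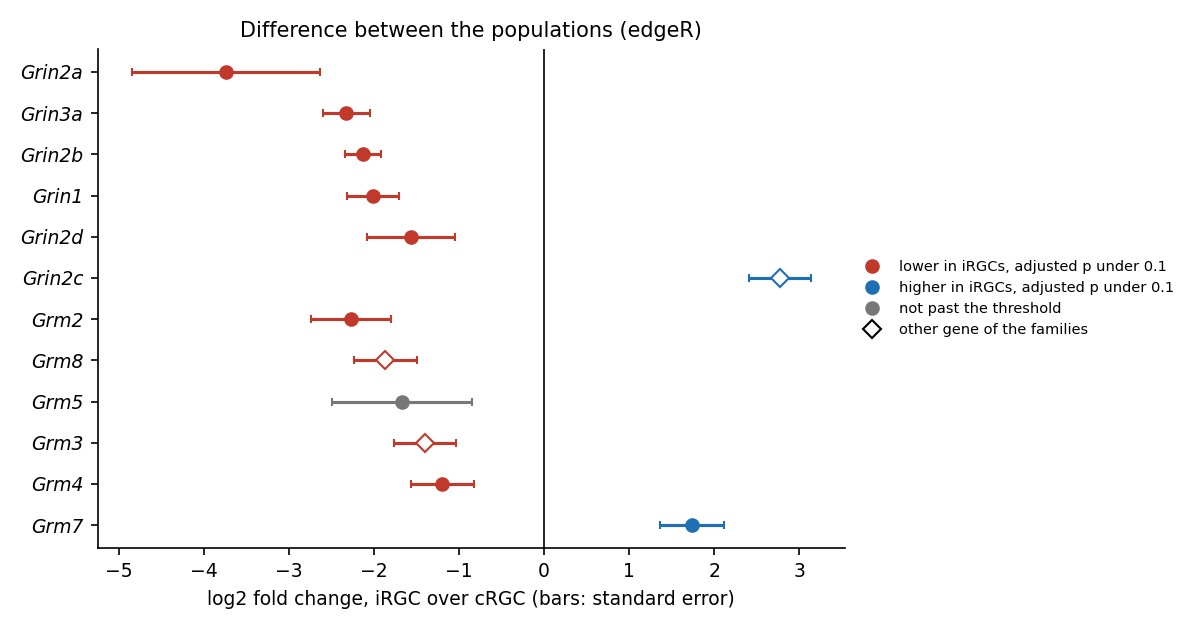
Log2 fold change, iRGC over cRGC, with its standard error, for the 9 receptors (filled circles) and 3 other genes of the families (open diamonds). Grm7 and Grin2c lie to the right of 0, Grm5 in grey did not pass, and the rest lie between -1.20 and -3.74.

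The order of the receptors also differed between the populations. Per kilobase of exon, the cRGC means ran from Grm2 (6.05 CPM per kb) and Grin1 (5.33) through Grm4 (2.54), Grin3a (1.79), Grm7 (1.56), Grin2b (1.39) and Grin2d (0.941) to Grm5 (0.336) and Grin2a (0.277). Between neighbours the library ranges overlapped, except between Grin1 and Grm4, between Grin2b and Grin2d and between Grin2d and Grm5. In iRGCs Grm7 came first, with 5.21 CPM per kb and no overlap with Grin1 (1.32), and Grin1, Grm2 (1.25) and Grm4 (1.10) could not be ordered beyond their spread. Below them came Grin3a (0.355), Grin2d (0.317) and Grin2b (0.316), whose ranges overlapped, and then Grm5 (0.105) and Grin2a (0.0204). Dividing by the longest transcript put Grin1 (12.1 CPM per kb) above Grm2 (6.28) in cRGCs. In iRGCs it left Grm7 (7.28) first and put Grin1 (2.99) above Grm4 (1.43) and Grm2 (1.30) in the order of means, with no overlap between the libraries of Grin1 and Grm4. The ratio of Grm7 to Grm2 per kilobase of exon was 792%, 284% and 370% in iRGCs and 27.9%, 68.7% and 9.73% in cRGCs (exact permutation p = 0.1, 0.3 after Benjamini-Hochberg adjustment).

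RGC markers and most of the receptors were low in the same libraries, so each receptor was also set against the geometric mean of the RGC markers in its own library. This view was chosen after the values were seen and carries no test. Grin1 was then 7.88%, 6.32% and 8.79% of the marker level in iRGCs and 8.96%, 9.09% and 8.76% in cRGCs, a log2 difference of -0.22 with overlapping libraries. Grin2b (-0.25), Grin3a (-0.46), Grm2 (-0.49), Grin2d (0.23), Grm4 (0.78) and Grm5 (0.03) also overlapped, as did Slc17a6 (-0.18), the vesicular glutamate transporter of RGCs. Grin2a remained apart, at 0%, 0.145% and 0.386% against 0.851%, 0.700% and 1.03%. Grm7 was at 29.5%, 16.1% and 15.2% against 0.961%, 2.75% and 1.12%. Because RGC markers were lower in iRGCs, this scale raises every gene there relative to cRGCs. A gene already higher in iRGCs thus moves further apart by construction, and the wider gap adds nothing to its call. Likewise, a gene whose decrease is near that of the markers comes to overlap by construction. The overlaps thus say only that the decreases were of similar size, and the positive values of Grin2d and Grm4 only that theirs were smaller. The share of all genes apart on this scale was not measured here.

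**Figure D4:**
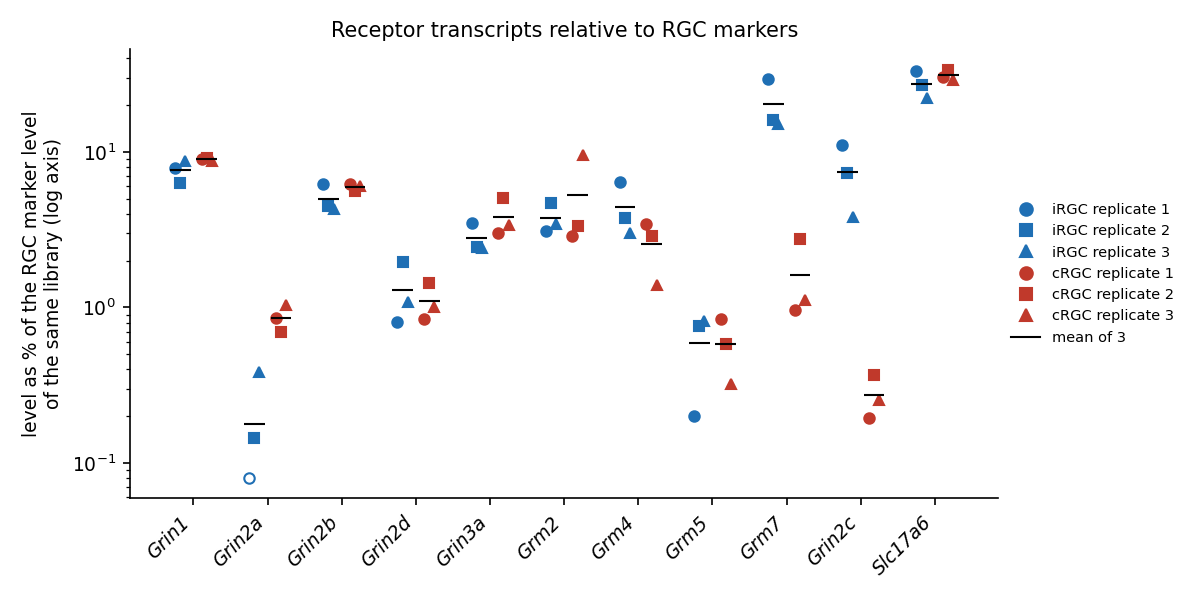
Level of each receptor, of Grin2c and of Slc17a6 as a percentage of the geometric mean of 15 RGC markers in the same library (log axis), with black bars for the mean of 3. On this scale libraries overlapped for each gene except Grin2a (lower in iRGCs), Grm7 and Grin2c (higher), and the open circle marks a count of 0.

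Genes whose profile over the 6 libraries was most like that of Grin1 were found by the root mean square difference of centred log2 levels among 11533 genes. They were Ube2ql1 (0.0665), Sult4a1 (0.0675), Resp18 (0.0690), Rph3a (0.0740), which binds synaptic vesicles, and Mapt (0.0797), the microtubule protein tau. For Grm7 they were less close: Slc6a9 (0.148), the glycine transporter GlyT1, Rdm1 (0.178), the secreted matrix protein gene Spon1 (0.178), Rpgrip1 (0.178), known from the photoreceptor cilium, and 3110082I17Rik (0.179). Slc6a9 is also counted below among the amacrine cell markers and among the genes of glycine and D-serine supply.

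Promoters are shown for 3 receptors with an entry in the RefSeq table (GRCm38.p6), from 250 bases before to 50 bases after the start, because Grm2 and Grin1 fell while Grm7 rose. The table held 4 of the 9 genes, the other being Grin2d. Capitals mark the GC box GGGCGG, a binding motif of Sp1-like factors, and the left and right arms, CAGCACC and GGACAGC, of the element bound by REST, a repressor of neuronal genes. Letters were searched on both strands, and no marked motifs overlap. The sequences are given 5′ to 3′ on the strand of the gene.
Grm2, chr9:106656060-106656359, minus strand: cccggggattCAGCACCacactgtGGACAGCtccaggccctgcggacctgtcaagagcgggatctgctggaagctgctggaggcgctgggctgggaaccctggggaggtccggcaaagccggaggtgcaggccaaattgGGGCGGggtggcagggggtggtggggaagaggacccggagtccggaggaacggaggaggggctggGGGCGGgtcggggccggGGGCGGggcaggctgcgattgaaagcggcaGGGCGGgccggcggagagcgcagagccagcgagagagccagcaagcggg
Grin1, chr2:25319138-25319437, minus strand: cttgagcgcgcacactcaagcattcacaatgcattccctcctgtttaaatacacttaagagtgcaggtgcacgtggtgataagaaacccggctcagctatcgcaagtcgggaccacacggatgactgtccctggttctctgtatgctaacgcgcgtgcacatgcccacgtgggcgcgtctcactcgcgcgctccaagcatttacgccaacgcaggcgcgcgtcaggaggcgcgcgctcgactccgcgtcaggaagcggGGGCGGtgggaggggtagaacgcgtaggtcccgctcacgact
Grm7, chr6:110645262-110645561, plus strand: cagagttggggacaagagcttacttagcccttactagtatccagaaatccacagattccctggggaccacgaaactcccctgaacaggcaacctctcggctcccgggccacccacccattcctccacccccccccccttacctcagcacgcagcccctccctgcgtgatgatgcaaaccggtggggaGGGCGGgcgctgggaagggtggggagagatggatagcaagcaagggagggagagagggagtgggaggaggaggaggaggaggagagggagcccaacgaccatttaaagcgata

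The Grm2 window held both arms in order, ttCAGCACCacactgtGGACAGCtcc, separated by 7 bases and starting 240 bases before the start. The pair, with at most 12 bases between its arms, was in 20 of 32851 promoters (0.0609%), whereas CAGCACC alone was in 7.14% and GGACAGC alone in 6.56%. The windows of Grin1, Grm7 and Grin2d did not hold the pair. Grm2 had 4 GC boxes, Grin1 and Grm7 had 1 each, and Grin2d, which was also lower in iRGCs, had 0. Of all promoters, 35.7% held at least 1. CpG dinucleotides numbered 33 for Grin1, 22 for Grm2, 12 for Grin2d and 10 for the Grm7 window shown, against a median of 7 over all promoters. The table holds a second Grm7 start, chr6:110645348-110645647, whose overlapping window has 15. A match of letters is a description and not evidence of binding.

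REST itself was higher in iRGCs, at 86.9, 71.2 and 60.3 CPM for Rest against 23.7, 20.8 and 23.5 CPM in cRGCs (log2 fold change 1.68, SE 0.161, edgeR adjusted p = 0.000212). Of 9 genes of REST and its corepressor complex, Rest included, 4 were higher, among them Rcor1 (0.94) and the deacetylase gene Hdac1 (0.92), and 2 were lower, Rcor3 (-0.77) and the demethylase gene Kdm1a (-0.33). Without iRGC replicate 2, 1 was lower. Over all tested genes 23.3% were higher and 23.1% lower. Rest is also expressed in progenitors, whose markers were higher in the same libraries, and their part in this difference was not tested.

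The partners of the receptors were followed through lists of genes grouped by role. In the same iRGC libraries 14 of 15 RGC markers were lower (median -1.94) and 14 of 14 retinal progenitor markers higher. The part of these cell classes in the differences of the partner lists was not tested. Of 22 NMDA receptor scaffolds and partners, 17 were lower and 1 higher in iRGCs, with a median log2 fold change of -1.11, against 23.1% lower and 23.3% higher over all tested genes. The largest decreases among those past the threshold and above the level minimum were in the scaffold gene Shank1 (-2.09), the auxiliary subunit gene Neto1 (-2.08) and the adhesion molecule gene Lrfn2 (-1.87). Dlg4, which encodes the postsynaptic scaffold PSD-95 and was picked after its values were seen, was at 91.1, 109 and 133 CPM in iRGCs and 260, 241 and 240 CPM in cRGCs (-1.15, SE 0.144, edgeR adjusted p = 0.000418). Its relative Dlg1 was the one that rose (1.26, SE 0.131, edgeR adjusted p = 0.000241). With cRGC replicate 3 left out, or with an absolute log2 fold change above 1 required as well, 11 of this list were lower.

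Downstream of the channel, 15 of 17 tested kinases and calcium effectors were lower and 0 were higher in edgeR (median -0.81), where 23.1% and 23.3% of all tested genes were. At an unadjusted p under 0.05, and likewise by DESeq2 and by limma, 0 of them were higher and 15 lower. With an absolute log2 fold change above 1 required as well, 7 were lower. The α subunit gene of the calcium- and calmodulin-dependent kinase, Camk2a, was at 4.54, 2.63 and 5.52 CPM in iRGCs and at 19.5, 21.1 and 21.6 CPM in cRGCs (-2.29, SE 0.297, edgeR adjusted p = 0.000487). Its partner subunit gene Camk2b (-1.76) and Ptpn5 (-1.84), a phosphatase that acts on NMDA receptors, were also lower. RGC markers were lower in the same libraries (14 of 15, median -1.94), and their part in these decreases was not tested.

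The metabotropic pathways held genes of both directions. For group I, 7 of 17 genes were lower and 3 higher, with a median of -0.30, where 23.1% of all tested genes were lower and 23.3% higher. The protein kinase C gene Prkcb (-2.02) and the phospholipase gene Plcb1 (-1.57) were lower, while the genes of the calcium release channels Itpr1 (1.84) and Itpr2 (0.96) and the diacylglycerol kinase gene Dgkz (0.49) were higher. For groups II and III, 11 of 18 tested genes were lower and 2 higher, with a median of -0.87, beside the same background. Elfn2 (-2.48), the G protein regulator Rgs7 (-2.02) and the adenylyl cyclase gene Adcy1 (-1.93) were lower. Elfn1, whose synaptic adhesion protein binds group III receptors, was higher (1.79), as was the G protein gene Gnai2 (0.87).

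Of the genes that supply and clear glutamate, 4 of 11 were lower and 4 higher, where 23.1% and 23.3% of all tested genes were. With replicate 2 of both populations left out, 2 were lower and 4 higher. The lower ones included the vesicular transporter genes Slc17a8 (-3.67) and Slc17a6 (-2.07) and the neuronal uptake carrier gene Slc1a1 (-1.38). Slc17a6, which encodes VGLUT2, was at 37.2, 40.2 and 50.7 CPM in iRGCs and at 191, 190 and 157 CPM in cRGCs. The higher ones included Slc1a3 (2.64), the glial and progenitor uptake carrier GLAST, Slc1a6 (1.12) and the glutamine synthetase gene Glul (0.82).

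For the co-agonists glycine and D-serine, 4 of 8 tested genes were higher and 1 lower (median 1.86), against 23.3% and 23.1% of all tested genes. The serine pathway genes Shmt1 (2.56), Phgdh (2.21) and Shmt2 (2.07) were higher, and Srr (-0.72), the serine racemase that makes D-serine, was lower. Shmt2 and Phgdh are also used by dividing cells for one-carbon metabolism, and progenitor markers were higher in these libraries. Their part in the difference was not tested.

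**Figure D5:**
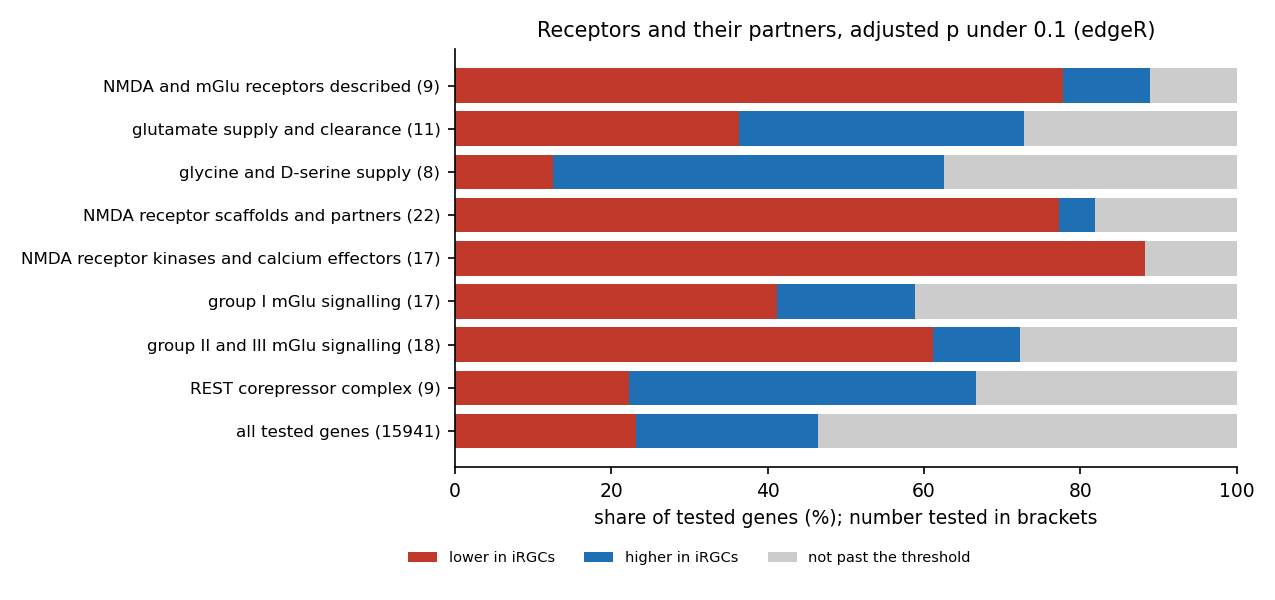
Share of tested genes of the receptors and each partner list that were lower (red), higher (blue) or not past the threshold (grey) in iRGCs, with the number tested in brackets and all 15941 tested genes at the foot. The lower share is largest for the kinases and calcium effectors, 15 of 17, and smallest among these lists for glycine and D-serine supply, 1 of 8.

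Markers of other cells that the sort could hold were measured in the same way. All 10 neurogenic precursor markers were higher in iRGCs (median 2.01), as were 7 of 8 amacrine cell markers (median 1.5) and 5 of 5 tested photoreceptor precursor markers (median 2.1). Amacrine markers had a geometric mean of 28.8, 25.2 and 36.4 CPM in iRGCs against 9.16, 14.2 and 8.83 CPM in cRGCs, led by Tfap2b. By edgeR, horizontal cell markers passed for 1 of 5 genes, higher, and bipolar cell markers for 1 of 3 tested, higher, beside 46.4% of all tested genes. Horizontal cell markers had 2 lower and 2 higher by DESeq2 and 2 lower and 1 higher by limma, and bipolar cell markers had 1 higher by DESeq2 and 0 by limma.

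Endothelial, mural and erythroid markers had their highest geometric means in iRGC replicate 2. All 4 tested endothelial markers, 2 of 3 mural cell markers, 3 of 5 microglia markers and 4 of 4 erythroid markers were higher in iRGCs by edgeR. By DESeq2 and limma the endothelial counts were 4 and 2, the mural counts 2 and 1, the microglia counts 4 and 4, and the erythroid counts 2 and 1. The endothelial geometric mean was 9.30, 40.5 and 2.06 CPM in iRGC replicates 1, 2 and 3 and at most 1.53 CPM in cRGCs. Kdr, the most abundant of the list, was at 366, 321 and 418 CPM in iRGCs, lowest in replicate 2. In the cRGC replicates it was at 83.7, 103 and 67.6 CPM. With iRGC replicate 2 alone left out, 8 receptors passed, 7 lower and 1 higher, beside 6629 of 16585 tested genes. With cRGC replicate 2 left out as well, 5 receptors passed, beside 5472 of 16082 tested genes. These were Grin1, Grin2b, Grin3a and Grm2 as lower and Grm7 as higher. The log2 fold changes of Grin2a, Grin2d and Grm4, which did not pass, were -3.67, -1.70 and -1.06. Pigment epithelium markers passed for 0 of 4 tested genes in edgeR, also at an unadjusted p under 0.05, and for 1 by DESeq2 and 1 by limma. The 1 lens marker tested did not pass by any of these tools, and no astrocyte marker was abundant enough to be tested. The part of these cell classes in the receptor differences was not tested.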

How the data were processed

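The deposited files hold whole-number read counts per gene for 6 RNA-seq libraries (3 iRGC, 3 cRGC). The authors sequenced on a HiSeq 2500 and, per the labels, aligned reads with HISAT2 2.1.0 to mm10 and counted with HTSeq 0.11.1 against Ensembl release 89. The strand setting is not given in the sources used here. The 13 ATAC-seq samples were not analysed here. Lines that name no gene, among them reads outside genes (12.3% to 23.3% of uniquely aligned reads), were left out of library sizes. Gene symbols and positions came from GENCODE M21 (GRCm38), which named 46574 of 47069 genes.

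Counts were filtered by expression (15941 genes kept), scaled by TMM and tested with edgeR 4.0.16 (quasi-likelihood, R 4.3.3), iRGC against cRGC with no covariate, adjusted over the whole table by Benjamini-Hochberg, at a threshold of 0.1. SE is the log2 fold change over the square root of F. The biological coefficient of variation was 36.3%. Intervals and limits for a count of 0 (3 reads) cover counting error only. Geometric means used CPM + 0.5.

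The receptors, the 8 partner lists and the 14 marker lists were chosen with earlier results of these data known. Named partners were the 3 with the largest change in each direction among those past the threshold with a mean of at least 1 CPM. Profiles were compared over genes with a mean of at least 5 CPM, and the 5 closest are named. Some items that these rules would name are not reported here. Dlg4, Grin2c, Slc6a4 and other label checks were named by role. In total 16 alternatives were run, including DESeq2 1.42.0 and limma 3.58.1. The edgeR fit was tested on simulated counts, where 15.4% of 136 calls were false, above the threshold. It recovered 44.9% of changes with an absolute log2 fold change of 1 and 75.5% of those of 2. The simulation changed 200 genes, far fewer than the 7395 called here, so its share of false calls cannot be carried over to these data.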

Additional observations from a re-analysis of the deposited data

How the results depend on the processing

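Grin1, Grin2b, Grin3a, Grm2 and Grm7 kept their direction and passed under all 16 alternatives, with log2 fold changes from -2.51 to -1.80, -2.34 to -2.03, -2.54 to -2.02, -2.67 to -1.58 and 1.5 to 2.46. Of the other receptors none changed direction. Grm5 passed with DESeq2 (-1.69, adjusted p = 0.0791) and without iRGC replicate 3 (-2.33, edgeR adjusted p = 0.0921). With replicate 2 of both populations left out, a choice made after the data were seen, 5 receptors passed and 4 of them were lower, since Grin2a (-3.67), Grin2d (-1.70) and Grm4 (-1.06) did not pass (edgeR adjusted p = 0.13, 0.144 and 0.182), with 5472 genes called in all. The cause was not tested. When 1 library was left out, the receptors past the threshold numbered 7 to 9, of which 6 to 8 were lower. Calls over all tested genes then ran from 6303 to 7603. With at least 10 reads required in every library, Grin2a and Grm5 were not tested. Without a filter 29.0% of genes were called. Calls over all genes were 7395 in edgeR, 7790 in DESeq2 and 7727 in limma.

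The difference in the ratio of Grin2b to Grin1 (iRGC minus cRGC) ran from -2.51 to 3.23 percentage points with 1 library left out (3.23 without iRGC replicate 3, 0.378 and 0.404 without cRGC replicates 1 and 3). That of Grin3a to Grin1 ran from -8.23 to 0.518 (without cRGC replicate 2), and that of Grm5 to Grin1 from -0.565 (without iRGC replicate 2) to 3.95, the named values being of opposite sign to the value over all libraries. These ratios overlapped between the populations over all libraries.

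Of 256 counts over the partner lists, 243 stayed within 1.5 times and 13 moved, 9 of them where an absolute log2 fold change above 1 was required as well. In that setting the scaffolds had 11 lower, the kinases and effectors 7 lower, group I 4 lower and 1 higher, groups II and III 1 higher, the REST complex 0 lower and 1 higher (edgeR, with 2 and 4 at the threshold alone), glutamate supply 2 higher, and glycine and D-serine supply 0 lower (edgeR, with 1 at the threshold alone). Samples share replicate numbers only as labels: same-numbered libraries had correlations of their deviations between -0.0669 and -0.0142. With the number as a replicate block, 8 receptors passed, 7 lower and 1 higher, and 6751 genes were called in all. Grin2a, Grm5 and Grin2d had the fewest reads of the receptors, and how far depth limits their calls was not tested.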

Other observations

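The pair of REST element arms found upstream of Grm2 was looked up in the other promoters, after the values were seen. Of the genes of the 20 promoters that hold it, 15 were tested, Grm2 among them. Of the 14 others, 9 were lower in iRGCs, among them Osbp2 (-2.26), Actl6b (-1.86), a neuronal chromatin remodelling subunit, Fbll1 (-1.73), Ttc9b (-1.69), Unc13a (-1.66), a vesicle priming factor, and Scg2 (-1.57), a secretory granule protein. The LIM homeobox gene Lhx3 was higher (2.52), and 4 did not pass. The background is 23.1% lower and 23.3% higher. In the same libraries 14 of 15 RGC markers were lower (median -1.94) and 14 of 14 progenitor markers higher, and their part in these differences was not tested. These counts are a description of letters and levels in these libraries, with no test.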
